A study of Mus musculus with 44 samples.

Results

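The RNA bound to tagged ribosomes in *Emx1*-lineage cells of the mouse hippocampus was compared with the total RNA of whole dorsal hippocampus. All 12 libraries prepared by translating ribosome affinity purification (TRAP) from the separate isolations formed one group, and all 24 libraries of wild type dorsal hippocampus formed the other, so 36 of the 44 samples in the series entered the comparison. The remaining 8 were TRAP libraries from simultaneous INTACT and TRAP isolations (SIT), in which tagged nuclei are pulled from the same homogenate, and they served only as an alternative TRAP group. The gene counts of both tables were joined on gene symbol, which kept 34806 genes, and 16991 of these had enough counts to be tested.

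The TRAP mice were male Emx1-NuTRAP animals, carrying Emx1-IRES-Cre and the NuTRAP cassette, sacrificed on postnatal day 42. They had either lived with a running wheel (early-life exercise, ELE) from postnatal day 21 to 41 or been sedentary, and 1 hippocampus, left or right, was used from each mouse. The wild type mice were C57Bl/6J males of the same age, and RNA was extracted from the dorsal part of the hippocampus. By their labels 3 min of object location memory training was given to 7 mice housed for exercise or as sedentary controls over postnatal days 21 to 41, to 6 over days 21 to 27 and to 4 over days 35 to 41. Of the rest, 3 mice had 10 min of training and 4 had none, both with housing over days 21 to 41, and trained mice were sacrificed 1 h after training. The column names of the wild type table could not be matched to those labels, so treatments were not assigned and the 24 columns were taken as one group. Region sampled, genotype, training, RNA source and the place of library preparation therefore differed together between the groups and cannot be told apart.

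*Emx1* encodes a homeobox factor of the embryonic dorsal forebrain, and its Cre line recombines in the progenitors that give rise to hippocampal pyramidal neurons, dentate granule cells and part of the glia. Interneurons, microglia and vascular cells of the hippocampus come from other origins. After recombination the NuTRAP cassette expresses the ribosomal protein L10a fused to EGFP, which lets polysomes be captured with an antibody, and a tagged RanGAP1 that labels the nuclear envelope. Because the recombined allele is inherited by all daughter cells, the tag reports lineage rather than present *Emx1* expression.

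Library totals ran from 45895097 to 65767802 counts for TRAP and from 39856044 to 61636303 for whole hippocampus. Of the whole hippocampus columns 18 have names that start with WT, 2 with LBN and 4 with HC, and the HC libraries stood apart from the other 20. Genes encoded by mitochondrial DNA took 8.82 to 10.2% of their counts against 2.57 to 7.46% in the others, and 19519 to 21591 genes were listed above 0 against 23415 to 25799. Of the TRAP libraries, 3 carried high counts of *Hspb1*, *Ptx3* and *Gfap* (described at the end). Several results that changed without the HC libraries or without these 3 are also given without them, but not all. On a multidimensional scaling of the libraries the first dimension held 56.7% of the variance and separated both groups completely. In bulk RNA, fewer cells of a type and less RNA per cell cannot be told apart, and this applies to every class described here.

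The transcripts of the construct were measured first. In the lowest, median and highest library, *Rpl10a* (GRCm38 chr17:28328471-28331033) stood at 451, 507 and 599.8 CPM (counts scaled to library size and adjusted by the trimmed mean of M-values) in TRAP and 56.2, 59.7 and 107 CPM in whole hippocampus. Every TRAP library lay above every whole hippocampus library (log2 fold change 2.93 ± 0.0871 SE, adjusted p = 3.44e-28 by edgeR's quasi-likelihood test with Benjamini-Hochberg adjustment, as for all adjusted p-values given here). *Rangap1*, which encodes the nuclear envelope protein used as the second tag, stood at 1008, 1239 and 1397 CPM in TRAP and 131, 189 and 205 CPM in whole hippocampus (log2 fold change 2.68 ± 0.0503 SE, adjusted p = 8.43e-35), although the spans annotated for this gene in the 2 tables overlapped by only 64.3%. Reads of the transgenes and of the endogenous genes cannot be told apart in these counts. *Emx1* itself was measured at 18.6, 21.2 and 26.7 CPM in TRAP and 9.79, 13.7 and 17 CPM in whole hippocampus, without overlap (log2 fold change 0.73 ± 0.0738 SE, adjusted p = 1.36e-11), which is under the 2-fold change required here for a call.

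**Figure D1:**
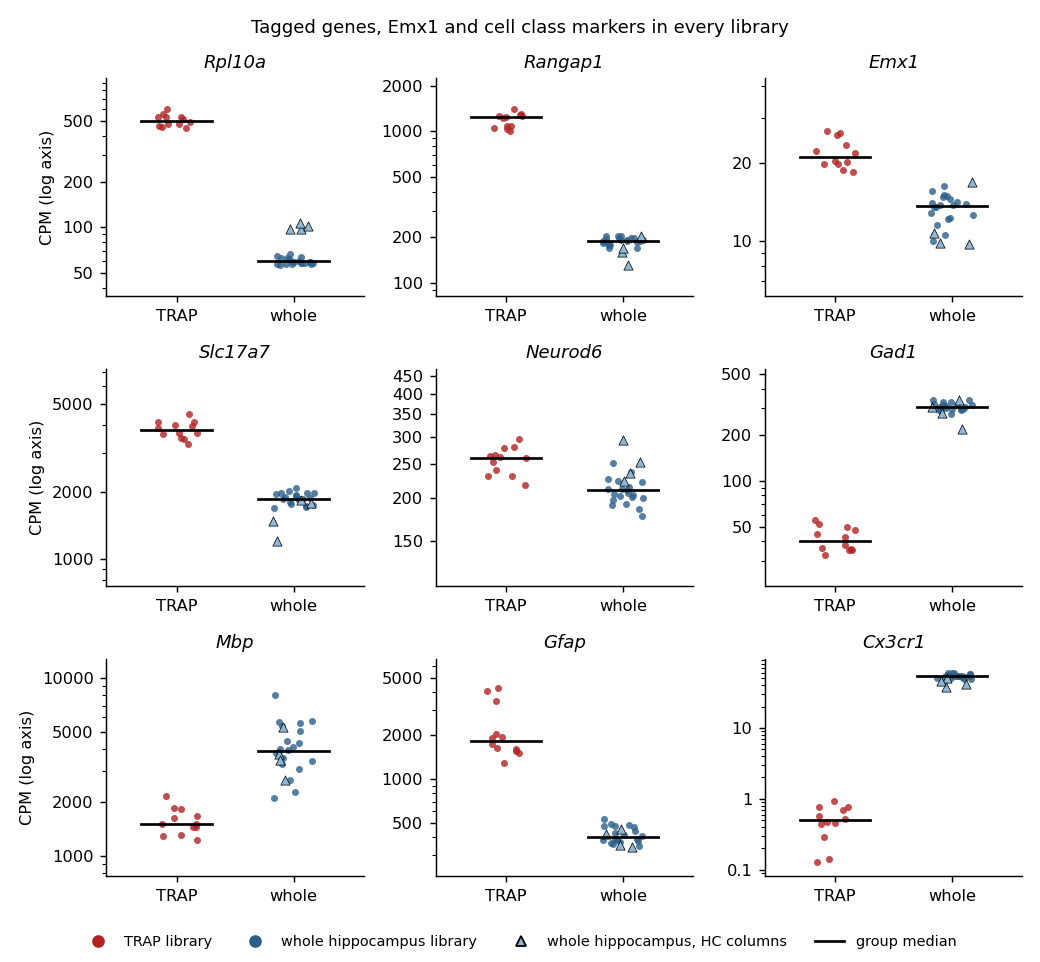
CPM on a log axis of the 3 construct genes and 6 marker genes in each of the 12 TRAP and 24 whole hippocampus libraries, with 1 point per library, a line at each group's median and the HC libraries as triangles. For the construct genes, Slc17a7 and Gfap every TRAP library lies above every whole hippocampus library, for Gad1 and Cx3cr1 every TRAP library lies below, and Neurod6 and Mbp overlapped between groups.

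A gene was called higher or lower when its adjusted p was under 0.05 and its log2 fold change exceeded 1 in size. By this rule 1438 of the 16991 genes (8.46%) were higher in TRAP and 2887 (17%) were lower, and the median log2 fold change of all genes was -0.02. Without the HC libraries 9.67% were higher and 16.8% were lower. The groups did not overlap in 22.9% of genes, and 25.5% were called in either direction. At any fold, 74.9% of genes passed an adjusted p of 0.05. Each gene list below is described by its called members and its median beside these backgrounds, with no test of the list. A value given alone in parentheses after a gene is its log2 fold change.

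A minority of excitatory forebrain neuron markers were higher in TRAP, by little more than the threshold. *Slc17a7* (GRCm38 chr7:45163949-45176142), which encodes the vesicular glutamate transporter of cortical and hippocampal neurons, stood at 3315, 3803 and 4522 CPM in TRAP and 1199, 1854 and 2077 CPM in whole hippocampus. The groups did not overlap (log2 fold change 1.07 ± 0.0525 SE, adjusted p = 5.10e-21). The postsynaptic calmodulin-binding protein gene *Nrgn* (log2 fold change 1.12 ± 0.0477 SE, adjusted p = 5.34e-23) and the transcription factor gene *Neurod2* (log2 fold change 1.13 ± 0.0832 SE, adjusted p = 2.26e-15) were higher too. These 3 of the 12 markers were called higher and none was called lower (25% of the list against 8.46% of all genes), with a median log2 fold change of 0.57, or 148% of the whole hippocampus level. *Neurod6*, a transcription factor gene of mature pyramidal neurons, stood at 218, 262 and 295 CPM in TRAP and 178, 211 and 294 CPM in whole hippocampus and was not called (log2 fold change 0.25 ± 0.0544 SE, adjusted p = 8.23e-05). *Camk2a*, encoding the abundant synaptic kinase, did not differ beyond the spread between libraries (log2 fold change -0.16 ± 0.11 SE, adjusted p = 0.172). The calls lay close to the threshold, and without the 3 TRAP libraries that stand apart only *Nrgn* was called, with *Slc17a7* at 0.98 and *Neurod2* at 0.95.

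Markers shared by all neurons went both ways. Of 14 such genes, 1 was higher and 1 was lower, the groups did not overlap in 5, and the median log2 fold change was 0.15. *Dlg4*, encoding the scaffold protein PSD-95, stood at 1890.1, 2163 and 2484 CPM in TRAP and 827, 1059 and 1166 CPM in whole hippocampus (log2 fold change 1.06 ± 0.0454 SE, adjusted p = 7.53e-23), and the change was 0.99 without the libraries whose names start TG7.3. *Map2*, the gene of the dendritic microtubule-associated protein, stood at 392, 489 and 550.5 CPM in TRAP and 713, 1098 and 1445 CPM in whole hippocampus and was lower (log2 fold change -1.19 ± 0.0799 SE, adjusted p = 1.12e-16). The other neuronal genes singled out by the study were not called, with log2 fold changes of 0.23 for *Thy1*, 0.00 for *Eno2* (adjusted p = 0.974) and -0.44 for *Syt4*.

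Among hippocampal subfields the markers did not move together. None of 8 CA1 pyramidal markers was called, with a median of 0.45 and *Mpped1* at the upper end (0.77). Of 11 CA2 and CA3 markers, 2 were higher and 2 were lower (18.2% each, against 8.46% and 17% of all genes, median -0.07). *Necab2*, encoding a neuronal calcium-binding protein, stood at 153, 194 and 225 CPM in TRAP and 46.8, 62.3 and 126 CPM in whole hippocampus and was higher (283% of the whole hippocampus level, adjusted p = 8.55e-17), as was the apoptosis regulator gene *Bok* (1.06), while the AMPA receptor auxiliary subunit gene *Cacng5* (-1.66) and the kinase gene *Map3k15* (-1.22) were lower. Of 11 dentate granule cell markers 10 had negative values, 3 were called lower (27.3% against 17% of all genes), and the median was -0.47. Those were *Dsp*, the desmosomal protein gene (log2 fold change -2.14 ± 0.226 SE, adjusted p = 5.36e-11), the synaptic organiser gene *C1ql3* (log2 fold change -1.81 ± 0.13 SE, adjusted p = 1.01e-15) and *Tdo2*, which encodes a tryptophan-degrading enzyme (-1.11). *Dsp* ranged from 9.31 to 42.3 CPM in TRAP and from 13.3 to 162 CPM in whole hippocampus, with overlap between the groups. *C1ql2*, the paralog of *C1ql3*, had a positive value without overlap that stayed under the 2-fold rule (0.97). Without the 3 TRAP libraries that stand apart 2 dentate markers were called lower and 1 CA2 and CA3 marker was called higher.

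Because a whole hippocampus was used for TRAP and only the dorsal part for the wild type tissue, markers of the long axis and of neighbouring tissue were measured. Of 4 dorsal markers only *Lct*, the lactase gene, was called, and it was lower (-1.05). Of 7 ventral markers *Dcn*, a proteoglycan gene (1.19), and *Nr2f2*, an orphan nuclear receptor gene (1.02), were higher and *Coch* (-1.06) was lower. Striatal markers were called in both directions, with *Penk*, the proenkephalin gene, at 1.09, *Drd1* at 1.08, *Six3* at -2.66 and *Adora2a* at -1.11. Of 7 thalamic markers 4 were lower (57.1% against 17% of all genes, median -1.29), with the Wnt pathway factor gene *Lef1* at -2.84. *Tcf7l2* (-0.47), *Ramp3* (-0.46) and *Slc17a6* (-0.45) were not called. Without the 3 TRAP libraries that stand apart the calls were 1 higher among ventral markers and 1 lower among striatal ones, *Lct* stood at -0.93 and *Penk* at 0.55, while the 4 thalamic calls were the same in number. The part of these regional values in the other results was not tested.

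GABAergic interneuron genes were depleted. Of 20 markers, 19 could be tested, 15 were lower and none was higher, which is 78.9% of those tested against 17% of all genes. Their median log2 fold change was -2.94, or 13% of the whole hippocampus level, and the groups did not overlap in 15. *Gad1* (GRCm38 chr2:70553072-70602014), encoding the larger GABA-synthesising glutamate decarboxylase, stood at 32.6, 40.3 and 55.5 CPM in TRAP and 219, 302 and 338 CPM in whole hippocampus (log2 fold change -2.84 ± 0.0736 SE, adjusted p = 4.40e-30). *Gad2*, encoding the smaller isoform, stood at 2.51, 4.13 and 9.81 CPM in TRAP and 83.9, 165 and 219.6 CPM in whole hippocampus (log2 fold change -5.00 ± 0.191 SE, adjusted p = 1.61e-24), or 3.12% of the tissue level against 13.9% for *Gad1*. The 2 isoform genes thus kept unequal shares. *Slc32a1*, the vesicular GABA transporter gene, stood at 0.888, 1.72 and 5.73 CPM in TRAP and 50.2, 96.8 and 138 CPM in whole hippocampus (log2 fold change -5.53 ± 0.224 SE, adjusted p = 1.01e-23).

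Genes of the separate interneuron populations were lower as well. The log2 fold change was -4.90 for *Lhx6*, the factor of interneurons from the medial ganglionic eminence, -4.86 for *Sst* (somatostatin), -4.39 for *Pvalb* (parvalbumin), -4.30 for *Vip* (vasoactive intestinal peptide) and -4.38 for the serotonin receptor gene *Htr3a*. *Sst* stood at 2.01, 5.04 and 8.78 CPM in TRAP and 97.6, 143 and 207 CPM in whole hippocampus. The vesicle calcium sensor gene *Syt2* was also lower (-2.82). Of the markers not called, the potassium channel gene *Kcnc2* stood at -0.84 and *Lamp5* at -0.59. *Npy*, encoding neuropeptide Y, stood at 0.791, 3.27 and 308 CPM in TRAP and at a median of 29.9 and a highest value of 44.3 CPM in whole hippocampus (log2 fold change 0.24 ± 0.534 SE, adjusted p = 0.692). Its high TRAP values came from the 3 libraries that stand apart, and without them its log2 fold change was -3.39.

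Astrocyte genes were not depleted. Of 17 markers 15 had positive values, 3 were higher (17.6% against 8.46% of all genes) and none was lower. The median was 0.46, or 137% of the whole hippocampus level. *Gfap* (GRCm38 chr11:102887336-102900912), the intermediate filament gene of astrocytes and radial progenitors, stood at 1298, 1838 and 4233 CPM in TRAP and 342, 397 and 529 CPM in whole hippocampus. Every TRAP library lay above every whole hippocampus library (log2 fold change 2.45 ± 0.122 SE, adjusted p = 9.27e-21), and without the 3 libraries that stand apart the log2 fold change was 2.00. Its spans in both annotations overlapped by 72.7%, and among 12 astrocyte markers whose spans overlapped by at least 95% the number called higher was 2. *S100b*, the astrocytic calcium-binding protein gene, stood at 221, 252 and 298 CPM in TRAP and 59, 73.2 and 94.6 CPM in whole hippocampus (log2 fold change 1.77 ± 0.0598 SE, adjusted p = 2.60e-26). *Ntsr2*, a neurotensin receptor gene used as an astrocyte marker, was higher too (log2 fold change 1.15 ± 0.0428 SE, adjusted p = 7.26e-25). Both groups were again fully separated. Markers that were not called included *Aqp4*, the water channel gene (0.46), *Kcnj10*, the inward rectifier channel gene (0.35), *Aldh1l1*, the folate enzyme gene (0.11, adjusted p = 0.0532), the glutamate transporter gene *Slc1a2* (0.04) and the connexin gene *Gja1* (-0.21). Summed over the list, the level was 9569 to 12557 CPM in TRAP and 5306 to 9146 CPM in whole hippocampus, with the HC libraries at 5306 to 6262. These sums include *Gfap*, at 1298 to 4233 CPM in TRAP and 342 to 529 CPM in whole hippocampus. The labels give neuron as the cell type of the TRAP RNA, and 14 of the 17 astrocyte markers were not called in either direction.

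Progenitor and immature neuron markers gave mixed calls, with 8.33% higher and 25% lower, against 8.46% and 17% of all genes. Of 12, *Hopx*, a homeobox gene of quiescent progenitors that astrocytes also express, was higher (log2 fold change 1.25 ± 0.0784 SE, adjusted p = 1.30e-17), and *Nes* (-2.39), *Mki67* (-2.08) and *Eomes* (-1.93), marking progenitor filaments, dividing cells and intermediate progenitors, were lower. Oligodendrocyte precursor genes were mostly not called, with 2 of 9 markers lower (22.2% against 17% of all genes) and a median of -0.86. The matrix protein genes *Vcan* (-2.56) and *Tnr* (-1.41) were lower, while *Pdgfra*, the growth factor receptor gene that defines these cells, stood at -0.36, *Olig1* at -0.11, *Olig2* at -0.95 and *Neu4* at -0.66.

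Mature oligodendrocyte genes were lower as a complete list, with 14 of 14 called and a median of -1.72, or 30.3% of the whole hippocampus level. *Mbp*, whose mRNA is carried into myelin processes, stood at 1225, 1505 and 2169 CPM in TRAP and 2113, 3890.3 and 8035 CPM in whole hippocampus, where the groups touched (log2 fold change -1.39 ± 0.143 SE, adjusted p = 2.67e-11). The members ranged from -2.59 for *Ermn* to -1.04 for *Gjb1*. *Opalin* stood at -1.40 and *Mog* at -1.29, but *Mog* is split over 4 rows in the wild type table and came out at 0.50 when only the row with its exact symbol was used. Summed oligodendrocyte levels of 2725 to 4484 CPM remained in TRAP against 7227 to 16922 CPM in whole hippocampus, with the HC libraries at 9245 to 16922.

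Microglial genes were depleted, with 16 of 16 lower and a median of -5.98, or 1.59% of the whole hippocampus level. *Cx3cr1* (GRCm38 chr9:119901616-120069879), the fractalkine receptor gene, stood at 0.129, 0.497 and 0.936 CPM in TRAP and 37.4, 53.1 and 59.3 CPM in whole hippocampus (log2 fold change -6.67 ± 0.162 SE, adjusted p = 5.28e-31), although its spans in both annotations overlapped by only 11.7%. *Ctss*, encoding cathepsin S, stood at 0, 0.169 and 0.562 CPM in TRAP and 35.7, 40.9 and 61.8 CPM in whole hippocampus (log2 fold change -7.65 ± 0.21 SE, adjusted p = 2.58e-29). Even the highest TRAP library lay far under the lowest tissue library for both genes. The complement gene *C1qa* stood at -6.04, the integrin gene *Itgam* at -7.07 and *Aif1*, the gene of the common microglial antigen Iba1, at -2.79. *Gpr84* was close to the limit of detection in both groups, at 0, 0 and 0.0725 CPM in TRAP and 0, 0.71 and 1.37 CPM in whole hippocampus (-6.15). The whole list summed to 10.2 to 16.5 CPM in TRAP and 372 to 456 CPM in whole hippocampus.

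Vascular, meningeal and blood genes were lower too. All 11 endothelial markers were called lower, with a median of -4.74 (-5.68 without TG7.3 and -3.72 with DESeq2), from -5.84 for the efflux pump gene *Abcb1a* to -1.28 for the glucose transporter gene *Slc2a1*. *Flt1*, a VEGF receptor gene, stood at 0.0725, 0.584 and 10.7 CPM in TRAP and 25.5, 53.9 and 78.1 CPM in whole hippocampus (log2 fold change -5.29 ± 0.434 SE, adjusted p = 4.47e-14). Of 9 pericyte and smooth muscle markers 8 were tested and 7 were lower (median -2.86), with *Abcc9* at -5.34 and *Vtn* at -5.28, and the exception was the smooth muscle actin gene *Acta2* (-0.43). Without TG7.3 or without TG9.2, 6 of the 8 were lower (medians -3.46 and -2.71). All 8 meningeal fibroblast markers were lower (median -3.64), led by *Igf2* (-6.77). With the SIT libraries all 8 were again lower, with a median of -1.63, or -3.94 without NT7. The 5 red cell genes were lower as well, with *Hba-a1* at 0.975, 1.9 and 3.62 CPM in TRAP and 18.2, 39.2 and 109 CPM in whole hippocampus (-4.46). With the 8 SIT libraries the red cell list lost its calls and its median was -0.44, and without NT7 all 5 were lower with a median of -3.24.

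Ventricular lining behaved differently. Choroid plexus genes were called lower in 6 of 7 but varied widely within each group. *Ttr*, the transthyretin gene, stood at 2.33, 28.1 and 1213 CPM in TRAP and 4.56, 1585 and 8518 CPM in whole hippocampus (log2 fold change -2.29 ± 0.979 SE, adjusted p = 0.0335), and none of the 7 genes was free of overlap. Without the 3 TRAP libraries that stand apart only 2 of the 7 were called. None of 5 ependymal markers was called (median 0.16), but with SIT libraries 2 were called lower, with a median of -0.97 and of -0.83 without NT7.

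**Figure D2:**
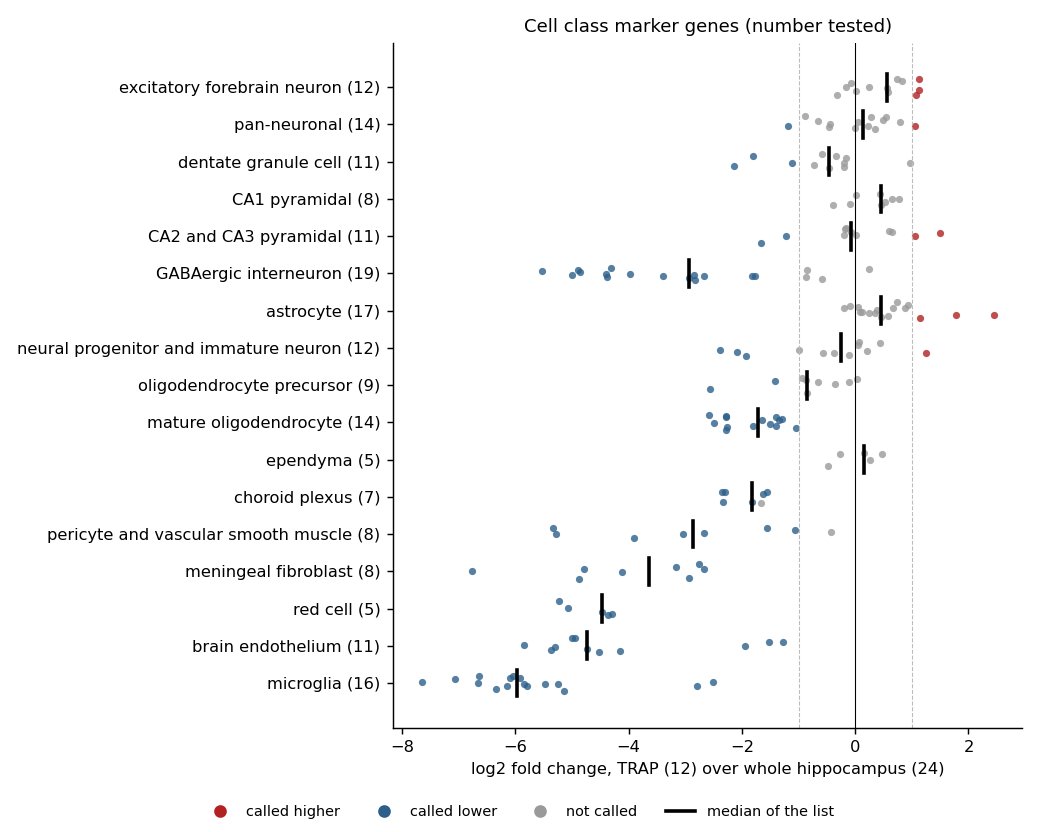
Log2 fold change (TRAP over whole hippocampus) of every tested marker, 1 point per gene, by cell class, coloured by call, with a bar at each median and dashed lines at a log2 fold change of -1 and 1. Microglial, endothelial, meningeal, red cell and, apart from Npy (0.24), interneuron genes lie to the left. The medians of the excitatory (0.57) and astrocyte (0.46) lists lie slightly right of 0.

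Noncoding RNAs known to stay in the nucleus were lower in TRAP, where the RNA is taken from ribosomes. Of 11 such genes 8 were called lower (72.7% against 17% of all genes) and 1 was called higher. The median was 25% of the whole hippocampus level. *Malat1*, the abundant transcript of nuclear speckles, stood at 7.07, 15.1 and 50.2 CPM in TRAP and 124, 231 and 450.4 CPM in whole hippocampus (log2 fold change -3.51 ± 0.245 SE, adjusted p = 4.15e-16). *Miat* stood at -3.02, the imprinted *Meg3* at -2.43 and *Neat1*, the core of paraspeckles, at -2.38. The exceptions were *Pantr1*, which was higher (1.61) but whose annotated spans overlapped by 44.8%, and *Peg13* (0.32) and *Pvt1* (-0.41), which were not called. Of 13 small nucleolar RNA host genes tested, 3 were higher and 2 were lower, from 6.96 for *Snhg6* to -4.35 for *Snhg3*, whose annotated spans overlapped by 30.9%. Without the HC libraries 6 were higher and 2 were lower.

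RNA encoded by mitochondrial DNA, which is translated on the ribosomes of the organelle, was far lower in TRAP. All 13 genes were lower without overlap, with a median of -5.89, or 1.69% of the whole hippocampus level. *mt-Co1*, the gene of cytochrome c oxidase subunit I, stood at 227, 281 and 341 CPM in TRAP and 6591, 13103 and 25347 CPM in whole hippocampus (log2 fold change -5.67 ± 0.237 SE, adjusted p = 2.99e-23). The 13 values lay between -6.27 for *mt-Atp8* and -5.27 for *mt-Nd1*. Their summed level was 627 to 1148 CPM in TRAP and 22512 to 90909 CPM in whole hippocampus, with the HC libraries at 73636 to 90909 CPM. Leaving these genes out of the library sizes gave 1399 higher and 2883 lower genes.

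Nuclear genes of the respiratory chain, which are translated on cytosolic ribosomes, mostly had positive values. Of 87 tested, 36 were higher (41.4% against 8.46% of all genes) and 2 were lower, with a median of 0.86. *Uqcr11*, a small subunit of complex III, stood at 127, 152 and 178 CPM in TRAP and 33, 39.5 and 45 CPM in whole hippocampus (log2 fold change 1.94 ± 0.0446 SE, adjusted p = 8.57e-32). The largest value was that of *Uqcr10* (5.45), at 101, 116 and 143 CPM in TRAP and 1.41, 2.83 and 4.01 CPM in whole hippocampus. In 19 of the 87 genes the annotated spans did not overlap by 95%. Among the 68 that did, 27 were higher and the median was 0.83. The 2 lower genes were *Cox6a2* (-4.26), the subunit isoform of heart, muscle and parvalbumin interneurons, and *Ndufa4l2* (-1.86), a gene of pericytes and hypoxic cells. Mitochondrial ribosomal protein genes showed 20 higher (25.6%) and 1 lower of 78, with a median of 0.72.

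These genes are short, and level in TRAP varied with transcript length. Of 14891 protein-coding genes 7.4% were higher and 15.8% were lower. When they were divided by exonic length into 5 groups of equal size, the median log2 fold change was 0.32 in the shortest group (204 to 2497 bases) and 0.15, 0.01, -0.13 and -0.37 in the successively longer ones. In the shortest group 507 of 2979 genes were called higher, and in the longest 72 of 2978. Of the 87 respiratory chain genes, 64 belonged to the shortest group, including 27 of the 36 higher ones, and their median within it was 0.92 against 0.32 for all genes of that group. The part of length in the result was not tested.

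**Figure D3:**
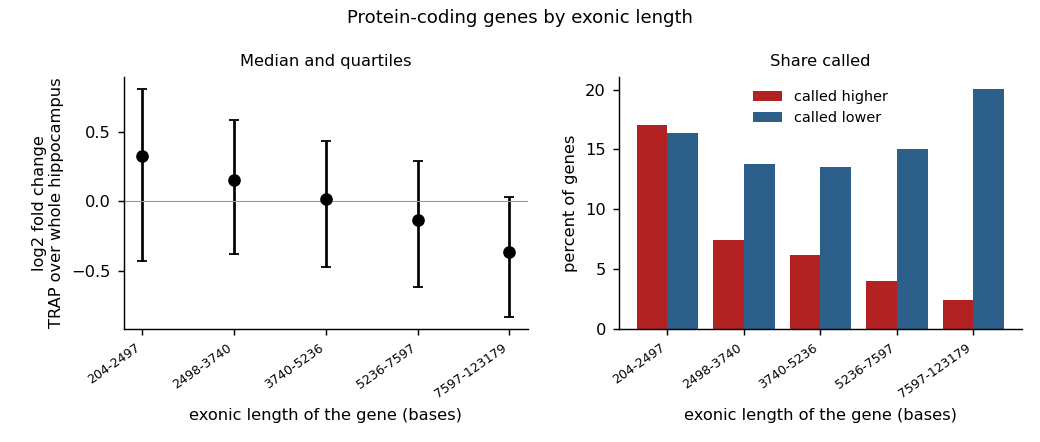
Log2 fold change (TRAP over whole hippocampus) of protein-coding genes in 5 groups of exonic length, from shortest to longest, as median and quartiles (left), and the percentage of each group called higher or lower (right). The median falls from 0.32 in the shortest group to -0.37 in the longest.

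The translation machinery itself was closer to level. Of 84 cytosolic ribosomal protein genes tested, 4 were higher and 5 were lower, with a median of 0.39 and 71 positive values. The 4 were *Rpl10a*, part of the construct, *Rpl41* (1.78), *Rpl22* (1.16) and *Rps27l* (1.16). Among the 5, *Rpl24* (-4.86) shares 47.0% of its exonic bases with another gene on its strand. Ribosomal protein genes have many near-identical pseudogene copies, so their counts are uncertain. Proteasome subunits had 1 higher and 1 lower of 39 (median 0.34), the interferon-inducible *Psmb8* being the lower one (-1.91). Among 18 translation factors only *Eif5a* (1.05) was called (median 0.06).

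In the 4 synaptic gene lists 5.56 to 16.7% of members were called lower, against 17% of all genes, and 0 to 6.25% were called higher, against 8.46%. Synaptic vesicle genes had a median of 0.06, with *Syn3* lower (-1.62) and the release machinery gene *Vamp2* at 0.81, not called. Postsynaptic scaffolds had a median of -0.02, with *Dlg4* higher and *Dlgap2* lower (-1.36). Of 21 glutamate receptor subunits, *Grik1* (-2.19) and *Gria4* (-1.27), both known from interneurons, were lower, 15 had negative values, and the median was -0.45. Of 12 GABA-A receptor subunits, *Gabrb2* and *Gabrg3* (-1.05) were lower (median -0.27). *Gabrb2* stood at 54.5, 71.4 and 95.5 CPM in TRAP and 176, 275 and 326 CPM in whole hippocampus (log2 fold change -1.89 ± 0.0845 SE, adjusted p = 2.77e-22).

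Activity and stress genes were compared because most of the wild type mice had been trained and the TRAP mice of the separate isolations had not. Of 13 immediate early genes only *Npas4*, a neuronal activity-dependent factor gene, was called, and it was lower (log2 fold change -1.17 ± 0.224 SE, adjusted p = 1.27e-05). *Fos* did not pass the test (log2 fold change 0.52 ± 0.245 SE, adjusted p = 0.0543), and the median was -0.13. Without the 3 TRAP libraries that stand apart *Npas4* was no longer called, at -0.91. Of 11 heat shock and chaperone genes only *Hspa1a* was called (-1.08), and its value was 0.35 when only the row with its exact symbol was used.

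**Figure D4:**
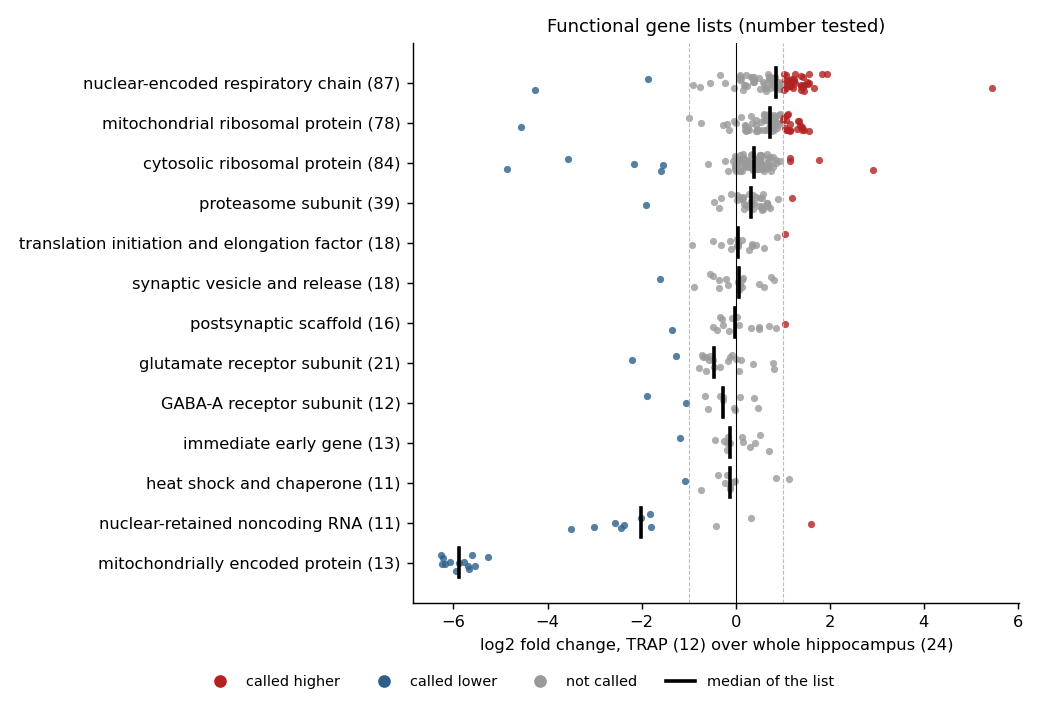
Log2 fold change (TRAP over whole hippocampus) of every tested member of the functional gene lists, 1 point per gene, coloured by call, with a bar at each median and dashed lines at a log2 fold change of -1 and 1. The medians of mitochondrially encoded genes (-5.89) and nuclear-encoded respiratory chain genes (0.86) lie on opposite sides of 0.

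The largest folds of single genes often belonged to genes that overlap a neighbour or are annotated differently in the 2 tables. Among protein-coding genes with at least 10 CPM in the higher group, *Gm16286*, *Cers1*, *Rpp14* and *Inafm1* were listed at 0 in all 24 whole hippocampus libraries. Against a floor of 3 counts per library they were at least 2025-fold, 1829-fold, 755-fold and 563-fold higher in TRAP. *Qser1*, *Zbed6*, *Raver1* and *Exosc6* were at 0 in all 12 TRAP libraries and at least 382-fold, 282-fold, 273-fold and 212-fold lower. Of the 20 genes with the largest folds, 12 share over 10% of their exonic bases with another gene on the same strand, against 2.93% of all protein-coding genes tested. Annotated spans fell short of 95% overlap in 7 of the 20, against 23.3% of all protein-coding genes tested. *Snrpn*, an imprinted splicing factor gene, stood at 955, 1074 and 1261 CPM in TRAP and 6.22, 7.96 and 15.8 CPM in whole hippocampus, with annotated spans that overlapped by 33.7%.

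A further set was chosen after the values were seen, from genes without shared exons, with closely agreeing annotation and with at least 5 CPM in every library of the lower group, a floor that itself limits the fold. The orphan receptor gene *Gpr135* (2.52), the thymosin gene *Tmsb10* (2.01), the neuron- and astrocyte-expressed metallothionein gene *Mt3* (1.90), the imprinted *Nnat* (1.88) and *Ctxn1* (1.88), encoding a small cortical membrane protein, were higher. *Ctxn1* stood at 989.8, 1165 and 1266 CPM in TRAP and 276, 312 and 374 CPM in whole hippocampus, without overlap. *Nnat* overlapped, at 350 to 694 CPM in TRAP and 76.1 to 602 CPM in whole hippocampus. Its highest value in whole hippocampus outside the HC libraries was 160 CPM. Among the lower ones were *Gnas*, the stimulatory G protein gene (-4.38), *Sptbn1*, a spectrin gene with 17492 exonic bases (-2.57), and *Dst*, the dystonin gene with 41155 exonic bases (-2.54).

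The SIT libraries, compared with the same 24 whole hippocampus libraries, gave 1331 higher (7.69%) and 2983 lower genes (17.2%). The controls are shared, so both comparisons are set side by side and are not independent. In the SIT libraries the medians were 0.61 for excitatory markers, -1.07 for interneurons, -1.93 for microglia, -4.09 for endothelium, -1.46 for mature oligodendrocytes and -0.96 for mitochondrially encoded genes. For the separate isolations those medians were 0.57, -2.94, -5.98, -4.74, -1.72 and -5.89. Of the 8 SIT libraries, the 2 whose names start with NT7 held 8.98 and 10.1% mitochondrially encoded counts against 0.198 to 0.541% in the other 6. Without these 2 the SIT comparison gave 10.6% higher and 19.4% lower, and the medians were -2.78 for interneurons, -5.11 for microglia, -6.08 for endothelium, -1.62 for mature oligodendrocytes and -3.79 for mitochondrially encoded genes. The astrocyte median was -0.01 in SIT, 0.10 without NT7 and 0.46 in the separate isolations. Immediate early genes had 6 of 13 higher in SIT (median 0.86) and 8 without NT7 (median 1.22), against 0 higher in the separate isolations, and the difference between the isolations was not tested.

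**Figure D5:**
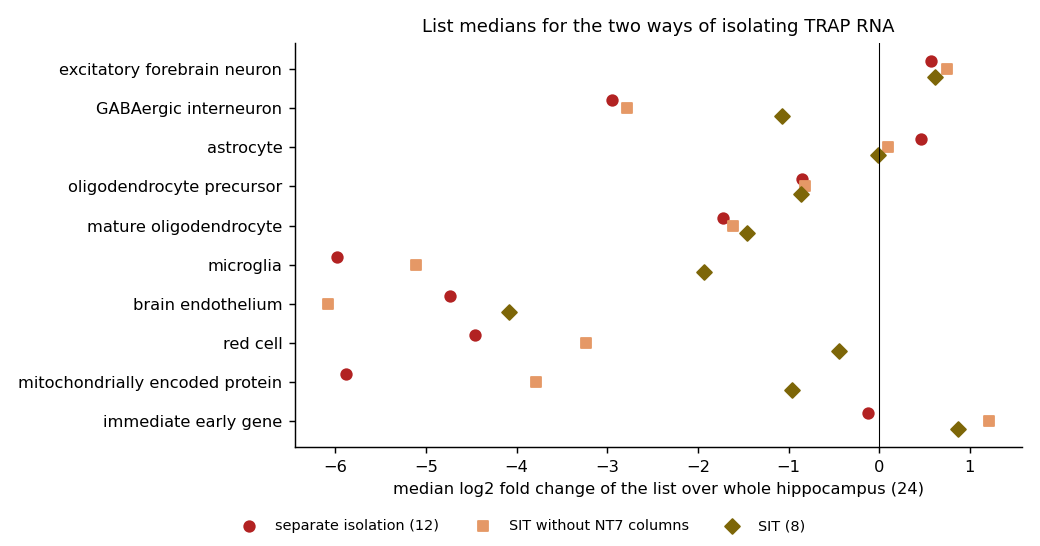
Median log2 fold change over whole hippocampus of 10 gene lists for the 12 separate-isolation TRAP libraries, the 8 SIT libraries and the 6 SIT libraries left without NT7, all against the same 24 whole hippocampus libraries. Microglia lie at -5.98, -1.93 and -5.11 in that order, and immediate early genes at -0.13, 0.86 and 1.22.

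The 3 TRAP libraries that stand apart (TG9.1.1, TG9.1.4 and TG9.2.1) shared a set of high genes. Among 11441 genes with at least 3 CPM in all 3, 30 were more than 2 times the highest of the other 9 TRAP libraries. They included *Ptx3*, the pentraxin 3 gene, at 25.5 to 58.5 CPM against 0.816 to 1.72, *Hspb1*, a small heat shock protein gene, at 21.6 to 71.1 CPM against 0 to 1.91, and the hyaluronan receptor gene *Cd44* at 19.9 to 63.1 CPM against 2.02 to 5.98. *Serpina3n*, a gene of reactive astrocytes, stood at 151 to 239 CPM against 42.7 to 67.3, and *Osmr*, the oncostatin M receptor gene, at 15.1 to 25.4 CPM against 4.05 to 6.48. *Gfap* stood at 3464 to 4233 CPM against 1298 to 2040, and *Aqp4*, from the same astrocyte list, at 321 to 364 CPM against 170 to 236, while *S100b*, *Slc1a2* and *Aldh1l1* overlapped. The libraries and genes were picked after their values were seen, so no test is given, and their treatment was not assigned.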

How the data were processed

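RNA was sequenced from 12 separate-isolation TRAP, 8 SIT and 24 whole dorsal hippocampus libraries, each from a separate mouse. The authors deposited 2 tables of raw counts per gene. Per the paper's methods and the submitters' processing notes, reads were checked with FastQC 0.11.9, aligned to GRCm38.p6 with STAR 2.7.3a, processed with Picard 1.87 and counted by strand in R 4.1.0, with DESeq2 1.32.0 downstream. The TRAP table uses versioned GENCODE identifiers, and the annotation release of the wild type table is not given in the sources used here. Its numbered copies of a symbol were added up, and the tables were joined on symbol, which kept about 98% of counts in each separate-isolation and whole hippocampus library and at least 95.7% in the SIT libraries.

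Here edgeR 4.0.16 in R 4.3.3 fitted the joined counts with TMM normalization, the filterByExpr filter by group and the quasi-likelihood test, with no covariate. SE was the size of the log2 fold change divided by the square root of F. Total counts of 39856044 or more put the floor of 3 counts near 0.0567 CPM in TRAP and 0.0612 CPM in whole hippocampus, for counting error only. The script was tested on simulated data. DESeq2 1.42.0, other scalings, filters and sample sets were tried as alternatives. Columns of the wild type table were matched to their group only.

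The markers, lists and rules were chosen with earlier results of these data known. Named genes were the given markers, the construct genes, those singled out in the study, up to 3 members at each end of each of the 36 lists, and the 10 protein-coding genes with the largest change each way at 10 CPM or more. *Sst*, *Pvalb*, *Vip* and other list members outside that rule were chosen after their values were seen. Some list members are counted but not reported here by name.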

Additional observations from a re-analysis of the deposited data

How the results depend on the processing

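Between 1331 and 1627 genes were higher and between 2826 and 3108 were lower under DESeq2, other scalings, protein-coding genes alone, leaving out mitochondrially encoded genes, SIT libraries, or leaving out the TG9.1, TG9.2, TG7.3, HC or LBN libraries, except that protein-coding genes alone gave 1046 higher and 2401 lower. With no low-count filter the counts were 2291 and 5123, with a log2 threshold of 0.5 they were 3797 and 4642 (7 excitatory and 8 astrocyte genes higher), and with genes whose annotated spans overlap by at least 95% they were 878 and 1845 of 12119 tested. The counts were 1304 and 3040 without the 3 TRAP libraries that stand apart, 1557 and 2919 with exact symbols, and 1854 and 3402 with SIT libraries without NT7. All microglial and endothelial genes tested were lower in each of these settings. With SIT libraries 1 of 13 mitochondrially encoded genes was called lower, and without the 3 libraries highest in *Hspb1* and *Gfap* 1 excitatory gene was called higher. *Npy* turned to -1.30 with DESeq2, -2.84 without TG9.1 and -3.39 without those 3 libraries, and *Hspb1* to -3.21 without them. In the SIT libraries *Rarres2* stood at -1.36, *Npas4* at 1.39 and *Egr2* at 1.74, and without NT7 at -1.50, 1.73 and 2.16. With exact symbols alone *Mog* stood at 0.50 and *Hspa1a* at 0.35. The causes were not tested beyond the construction of the alternatives. Settings leaving out HC, LBN, NT7 or the 3 libraries, exact symbols and the span limit were added after the data were seen. No paired analysis was possible because the columns could not be tied to replicate numbers shared by both groups.

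Symbols joined across 2 annotations limit single genes. Genes with numbered copies in the wild type table had a median log2 fold change of -0.03 with copies added up and 0.76 with the exact symbol alone.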

Other observations

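Gene types differed in how often they were called. Of 67 noncoding genes with bidirectional promoters, the median log2 fold change was 0.67 and 34.3% were higher in TRAP. Of 468 lincRNA genes 21.8% were higher and 25% were lower, and of 435 antisense genes 18.2% were higher and 31.7% were lower, against 7.4 and 15.8% of 14891 protein-coding genes. Unprocessed pseudogenes had a median of -0.61 over 54 genes. Overlapping genes and differing annotations bear on all these classes, and their part was not tested.

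For 142 genes whose counts were split evenly between the symbol and its numbered copy in the wild type table, the median log2 fold change was 0.09 with the copies added up and 1.04 with the exact symbol alone.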
